A study of Arabidopsis thaliana with 4 samples.

Results

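The Argonaute and Dicer-like genes of Arabidopsis thaliana encode the proteins that make and use small RNAs. The 10 genes described here were chosen by locus identifier from the 33664 features of each library's expression table: the Argonaute genes AGO1, AGO2, AGO4, AGO6, AGO7 and AGO10 and the Dicer-like genes DCL1, DCL2, DCL3 and DCL4. The rule names loci and uses no measured value, but the loci were picked with earlier results of these libraries known. Poly(A) RNA from whole seedlings aged 9 days was sequenced in 2 libraries of wild type and 2 of the mutant trm4b-4, both in the Col-0 ecotype and both raised on MS medium with 16 h of light and 8 h of darkness at 23 ± 2 °C. The mutant stands for a single allele of TRM4B, whose product methylates cytosines in RNA. The genotype field of the labels spells this allele tm4b-4, and the kind of lesion is not given in the sources used here.

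A Dicer-like enzyme cuts double-stranded RNA into small RNAs of a set length, and an Argonaute protein binds one strand of the product and uses it to find matching transcripts or chromatin. In Arabidopsis, DCL1 makes microRNAs, DCL4 makes trans-acting and antiviral small interfering RNAs, DCL2 makes a further antiviral class, and DCL3 makes the longer small interfering RNAs that direct DNA methylation. AGO1 and AGO10 act with microRNAs, AGO7 with miR390 in the trans-acting pathway, AGO2 in antiviral defence, and AGO4 and AGO6 in RNA-directed DNA methylation. Part of this machinery is itself under microRNA control, through miR168 for AGO1, miR162 for DCL1 and miR403 for AGO2.

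The feedback sites are shown because they tie the levels of AGO1, DCL1 and AGO2 to small RNAs that these proteins make or carry. The mature microRNAs were read from the RefSeq annotation of TAIR10.1, with bases 2 to 8, the seed, in capitals.
miR168a: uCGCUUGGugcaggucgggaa
miR162a: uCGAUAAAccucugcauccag
miR403: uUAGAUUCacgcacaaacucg
The matching sites in the longest annotated transcripts follow, with the bases that face the seed in capitals.
AGO1 site of miR168a: uucccgagcugcaUCAAGCUa
DCL1 site of miR162a: cuggaugcagaggUaUUAUCGa
AGO2 site of miR403: ggaguuugugcguGAAUCUAa
AGO3 site of miR403: gauguuugugcguGAAUCUAa

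The AGO1 site lies in the coding sequence on the minus strand, at chr1:17891529-17891549. It differs from a full complement of miR168a at 3 bases, 2 of them facing the seed, with G:U pairs counted as mismatches. The DCL1 site, also coding and on the plus strand, spans an intron, with its bases up to 27533 and from 27618 of chromosome 1. It pairs with all of miR162a and holds 1 extra base, the lower-case base among the capitals. The AGO2 site is in the 3′ UTR on the plus strand, at chr1:11185223-11185243, with 1 mismatch. AGO3, the next gene along the chromosome and an Argonaute gene outside the 10, carries a site of the same microRNA in its 3′ UTR at chr1:11192399-11192419, with 3 mismatches and the same bases facing the seed. Among the 37885 genes searched, AGO2 and AGO3 were the only ones with a site of at most 3 mismatches to miR403 (0.00528%), and AGO1 the only one for miR168a (0.00264%). DCL1 was the only gene that matched miR162a with 1 extra base and at most 1 mismatch (0.00264%), while 2 other genes (0.00528%) matched it with no extra base and at most 3 mismatches. A match describes the sequence and does not show that a site was used in these seedlings.

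TRM4B (AT2G22400, chr2:9504659-9508895, minus strand) was higher in the trm4b-4-labelled libraries. Levels are in FPKM, a fragment number scaled by gene length and library total. TRM4B stood at 29.7 and 28.9 FPKM in wild type against 86.3 and 87.1 FPKM (log2 change 1.53, SE 0.034, limma adjusted p = 2.4e-08). Which part of the gene these fragments cover is not visible in one value per gene. Every direction given here refers to the genotype on the label. Library totals, inferred from the values, were 21931590 to 26390263 fragments, and 18785 to 18888 genes per library reached 1 FPKM. No label states that replicate libraries are separate cultures. A p-value here rests on the spread among 4 libraries, which limma draws towards that of other genes of similar level. That spread may be technical. The test was limma on log2(FPKM + 1), with a filter of 1 FPKM in 2 of 4 libraries, and rise and fall are used of genes with an adjusted p under 0.05. By that rule 6530 of 19027 genes (34.3%) changed, 3648 higher (19.2%) and 2882 lower (15.1%), with a median log2 change of 0.031 over all tested genes. After median-of-ratios rescaling the split was 2967 higher and 3339 lower.

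Of the 10 genes, 9 passed the filter and AGO6 did not. AGO4 and AGO7 rose in the trm4b-4-labelled libraries, the other 7 tested genes did not pass in either direction, and none fell. The 2 of 9 that rose are close to the 19.2% of all tested genes that rose, and the count is no result about the family. The median log2 change of the 9 was 0.06, between -0.04 for DCL3 and 0.32 for AGO7, and 7 of the 9 values were above 0. No member passed a test against a fold of 1.5, which 2.38% of all tested genes passed. With voom on the recovered whole fragments DCL1 rose as well, so that 3 of 9 passed, against 39.5% of all genes in that fit (22.8% higher and 16.7% lower). With no filter AGO4 alone of the 10 rose, against 21.7% of genes that changed (11.9% higher and 9.85% lower).

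**Figure D1:**
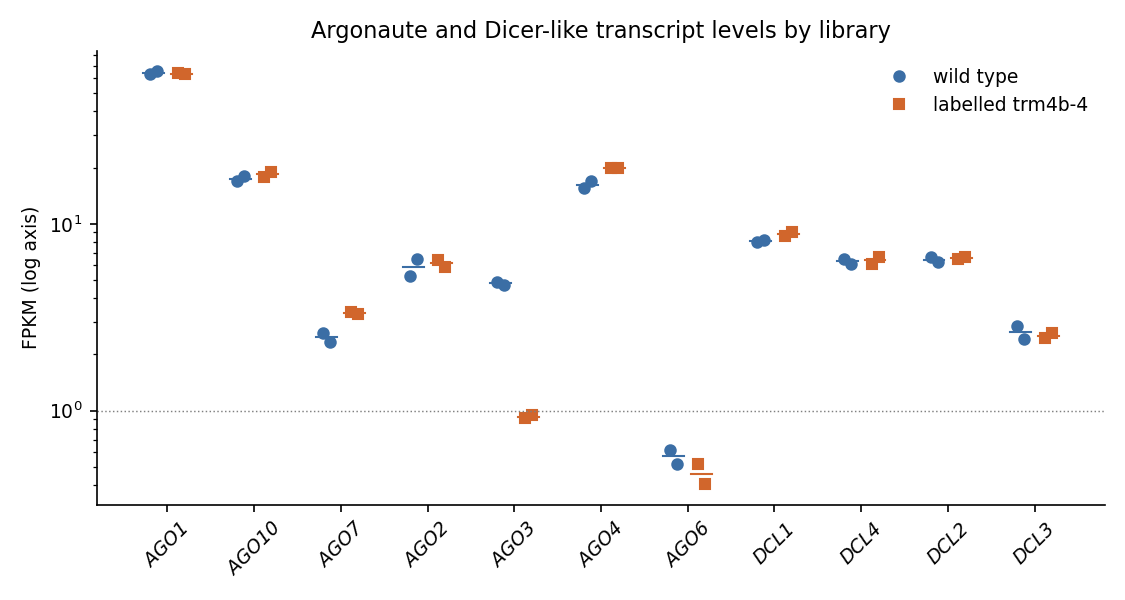
FPKM on a log axis for the 10 genes and AGO3, in the 2 wild-type libraries (circles) and the 2 trm4b-4-labelled libraries (squares), with a dash at each group mean and a dotted line at the filter of 1 FPKM. AGO1 stands above all others at 63.1 to 65.3 FPKM, AGO6 lies under the filter in every library, and the means of AGO3 are 4.80 and 0.929 FPKM.

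AGO1 (AT1G48410, chr1:17885633-17892632, minus strand), the main carrier of microRNAs, was the most abundant member in every library. Its level was 63.4 and 65.3 FPKM in wild type, against 63.9 and 63.1 FPKM in the trm4b-4-labelled pair. The 4 values lie within a few percent of each other and the groups overlap. The log2 change was -0.02 (SE 0.032, 95% interval -0.09 to 0.05, adjusted p = 0.678), so a rise or fall beyond 0.09 on this scale is outside the interval. By its mean over the libraries AGO1 was above 90.0% of all tested genes.

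AGO10 (AT5G43810, chr5:17610744-17616907, plus strand), which binds miR165 and miR166 and keeps them from AGO1 in the shoot apex, stood at 16.9 and 17.9 FPKM in wild type. In the trm4b-4-labelled libraries it stood at 17.8 and 18.9 FPKM. The groups overlap, and the log2 change of 0.07 did not pass (SE 0.056, 95% interval -0.06 to 0.20, adjusted p = 0.357). Beside it, the shoot apex marker STM fell from 3.09 and 3.33 FPKM to 2.17 and 2.35 FPKM (log2 change -0.37, adjusted p = 0.0256), while KNAT1, the other tested marker of this list, was higher in both trm4b-4-labelled libraries, at 11.2 and 10.7 FPKM against a wild-type mean of 9.63 ± 0.530 FPKM, and did not pass (SD, n = 2; log2 change 0.17, limma adjusted p = 0.0867). The stem cell genes WUS and CLV3 were at or near 0 in all libraries. The part of apex tissue in the level of AGO10 was not tested. In whole seedlings, fewer cells of a type and less RNA per cell cannot be told apart, here or for any gene below.

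DCL1 (AT1G01040, chr1:23121-31227, plus strand), the Dicer of microRNAs, stood at 7.96 and 8.14 FPKM in wild type, against 8.62 and 9.04 FPKM in the trm4b-4-labelled pair. Both of the latter are above both of the former. The difference was small, with a log2 change of 0.12 (SE 0.069, 95% interval -0.04 to 0.28), and did not pass (adjusted p = 0.227). With voom on whole fragments the change of 0.13 passed (adjusted p = 0.0239). DCL1 shares 788 exon bases (12.5%) with AT1G03993 and 58 with PPa1, both on the opposite strand. PPa1 was at 45.4 and 45.2 FPKM against 41.5 and 39.9 FPKM, and the strand setting of the counting is not given in the sources used here, so the part of opposite-strand reads in the value of DCL1 was not tested.

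Of the primary transcripts of the feedback microRNAs, MIR162A and MIR168A were tested, and neither passed in the main fit. MIR162A, the source of the microRNA whose site lies in DCL1, stood at 13.7 and 14.8 FPKM in wild type, against 14.6 and 14.1 FPKM in the trm4b-4-labelled pair (log2 change 0.02, adjusted p = 0.872). MIR168A, the source of the microRNA that matches AGO1, stood at 5.10 and 5.66 FPKM against 5.26 and 7.09 FPKM (log2 change 0.16, adjusted p = 0.367). The log2 change of MIR168A rests on 1 library, since it was 0.34 without trm4b-4 replicate 1 and -0.03 without trm4b-4 replicate 2. MIR162B and MIR403 were at 0.642 FPKM or lower, MIR168B was listed at 0 throughout, and these 3 were not tested. These are reads of poly(A) precursors, and the mature microRNAs were not measured.

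Of 12 partners of DCL1 and AGO1 in microRNA maturation, all tested, 1 rose and none fell, beside 19.2% and 15.1% of all tested genes, with a median log2 change of 0.09. The gene that rose was HST, an exportin of microRNAs, from 7.23 and 7.89 FPKM to 9.32 and 8.79 FPKM (log2 change 0.23, adjusted p = 0.0452). It was lost without wild type replicate 1 (adjusted p = 0.205), wild type replicate 2 (0.0601), trm4b-4 replicate 1 (0.173) or trm4b-4 replicate 2 (0.0681), and adjusted p was 0.0501 to 0.0891 in the 5 other fits in which it did not pass. HYL1, the double-stranded RNA binding partner of DCL1, stood at 0.17 (adjusted p = 0.109), and SQN, a cyclophilin that helps AGO1 take up microRNAs, at 0.22 (adjusted p = 0.0633). With voom 4 of the 12 passed, near the 39.5% of all genes in that fit. Among 6 genes of small RNA turnover none rose and 1 fell, URT1, which adds uridines to RNA 3′ ends, from 31.0 FPKM in both wild-type libraries to 26.7 and 27.5 FPKM (log2 change -0.19, adjusted p = 0.00932). The median of the 6 was 0.01.

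Transcripts that microRNAs target were read as well, and a link of their levels to AGO1 or DCL1 was not tested. Of the 5 class III HD-ZIP genes, the targets of the miR165 and miR166 that AGO10 binds, none passed in either direction in limma. Of all tested genes 34.3% passed. None of the 5 had an unadjusted limma p under 0.05, beside 8426 of all 19027 tested genes. With 5 genes these counts are no result about the list. The changes of the 5 lay between -0.04 and 0.06. Among 10 tested targets of other microRNAs 6 rose and 1 fell, beside 19.2% and 15.1% of all tested genes, with a median of 0.24 beside 0.031. Fewer of the 10 passed with each library left out in turn, and fewer of all genes did. TOE1, an AP2-type repressor of flowering targeted by miR172, rose from 35.5 and 33.5 FPKM to 47.0 and 46.0 FPKM (log2 change 0.42, adjusted p = 0.000138). TCP4, a leaf growth regulator targeted by miR319, rose by 0.42 (adjusted p = 0.000495), and SPL9, a phase change regulator targeted by miR156, by 0.44 (adjusted p = 0.00395). AP2, also a target of miR172, rose by 0.23 (adjusted p = 0.014), and NAC1, a target of miR164, fell by 0.27 on the log2 scale (adjusted p = 0.0231). TOE1, TCP4 and SPL9 passed in every alternative. AP2 was lost without wild type replicate 1 (adjusted p = 0.0516), wild type replicate 2 (0.0662) or trm4b-4 replicate 2 (0.0665), and NAC1 without the same libraries (0.0951, 0.0732 and 0.111), without a filter (0.0599) and without the trend (0.0532). This list is a hand-picked sample of known targets in which leaf regulators are frequent. All 4 leaf markers rose as well, beside 19.2% of all tested genes. Their summed level went from 10440 and 10530 FPKM to 12058 and 12170 FPKM, but the rises were uneven. The log2 changes were 0.95 for LHCB1.1 and 0.63 for LHCB2.1, against 0.08 for RBCS1A and 0.09 for PSAD1. Of 6 root markers 1 rose, PRP3 (0.50, limma adjusted p = 0.000383), and 1 fell, PER64 (-0.32, limma adjusted p = 0.018). Of 4 dividing cell markers none rose and 1 fell, KNOLLE (-0.24). Of 2 tested flower markers none rose and 1 fell, SEP3 (-0.64). The part of leaf tissue in the rise of the targets was not tested.

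AGO7 (AT1G69440, chr1:26101407-26105328, minus strand), the partner of miR390 that starts trans-acting RNA synthesis from TAS3, rose. It stood at 2.61 and 2.33 FPKM in wild type, against 3.36 and 3.30 FPKM in the trm4b-4-labelled pair. The libraries of a genotype lie close together and the groups are separate. The mean went from 2.47 ± 0.202 to 3.33 ± 0.0396 FPKM (SD, n = 2 each), a ratio of 1.35 and a log2 change of 0.32 on the FPKM + 1 scale (SE 0.101, 95% interval 0.09 to 0.55, limma adjusted p = 0.0407). In fragments this was 218 and 175 against 233 and 241, or a rate ratio of 1.34 with an exact 95% interval of 1.17 to 1.54 that covers counting error only.

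The call of AGO7 was the weaker of the pair. It was lost without the filter (adjusted p = 0.0735), under median-of-ratios scaling (0.30, adjusted p = 0.0548) and with quantile normalization (0.29, adjusted p = 0.0590). It was also lost without each library in turn, wild type replicate 1 (adjusted p = 0.0700), wild type replicate 2 (0.185), trm4b-4 replicate 1 (0.126) and trm4b-4 replicate 2 (0.107), while the change stayed between 0.262 and 0.381. Voom on whole fragments kept it (0.43, adjusted p = 0.00225).

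DCL4 (AT5G20320, chr5:6859212-6869307, minus strand), which dices the double-stranded RNA of the same pathway, did not pass the test. It stood at 6.51 and 6.13 FPKM in wild type, against 6.12 and 6.68 FPKM in the trm4b-4-labelled pair. Both wild-type values lie within the span of the other pair, and the log2 change was 0.01 (SE 0.082, 95% interval -0.17 to 0.20, adjusted p = 0.910). Whether AGO7 and DCL4 differ in their change was not tested.

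TAS3, the precursor that AGO7 cleaves, stood at 14.2 and 11.5 FPKM against 13.1 and 10.8 FPKM (log2 change -0.10, adjusted p = 0.542). Of 7 tested primary microRNA and TAS transcripts 1 rose, TAS2, a substrate of miR173 and AGO1, from 13.6 and 13.4 FPKM to 17.0 and 17.6 FPKM (log2 change 0.33, adjusted p = 0.00188), and the median of the 7 was 0.07. That is 1 of 7 beside the 19.2% of all tested genes that rose. Of the 3 auxin response factor genes that TAS3 small RNAs target, ARF4 rose from 13.7 and 13.4 FPKM to 15.4 and 15.7 FPKM (log2 change 0.19, adjusted p = 0.03). That call was lost without wild type replicate 1 (adjusted p = 0.0865), wild type replicate 2 (0.122), trm4b-4 replicate 1 (0.0643) or trm4b-4 replicate 2 (0.113), and after rescaling by median of ratios (0.16, adjusted p = 0.058). ARF3 and ARF2 did not pass (-0.05 with adjusted p = 0.41, and -0.01 with adjusted p = 0.829). MIR390A was listed at 0 in all libraries.

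Of 7 genes that make or stabilise double-stranded RNA for secondary small interfering RNAs, none rose and 1 fell, beside 19.2% and 15.1% of all tested genes, with a median log2 change of -0.12. SDE5, a putative RNA export factor of this step, fell from 3.97 and 4.24 FPKM to 3.15 and 3.11 FPKM (log2 change -0.31, adjusted p = 0.0351). It was lost without a filter (adjusted p = 0.069) and without wild type replicate 1 (0.0827), wild type replicate 2 (0.164), trm4b-4 replicate 1 (0.091) or trm4b-4 replicate 2 (0.103). The polymerase gene RDR6 stood at 13.4 and 13.5 FPKM against 12.9 FPKM in both trm4b-4-labelled libraries (-0.05, adjusted p = 0.49). Its partner SGS3 stood at 14.4 and 13.8 FPKM against 12.9 and 12.8 FPKM (-0.12, adjusted p = 0.135).

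DCL2 (AT3G03300, chr3:767880-776214, minus strand), of the antiviral branch, stood at 6.62 and 6.23 FPKM in wild type, against 6.44 and 6.68 FPKM in the trm4b-4-labelled pair. The groups overlap, and the log2 change was 0.03 (SE 0.078, 95% interval -0.15 to 0.21, adjusted p = 0.822). DCL2 shares 515 exon bases (9.65%) with AT3G03305 on the same strand, so their reads cannot be fully told apart. That neighbour lay between 5.93 and 6.62 FPKM and did not pass (0.08, adjusted p = 0.461).

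AGO2 (AT1G31280, chr1:11181504-11185396, plus strand), an Argonaute induced by viruses and bacteria, stood at 5.25 and 6.49 FPKM in wild type, against 6.42 and 5.86 FPKM in the trm4b-4-labelled pair. The wild-type libraries lie farther apart than the group means do. The log2 change of 0.06 did not pass (SE 0.105, 95% interval -0.18 to 0.30, adjusted p = 0.689), and it was -0.07 without wild type replicate 1.

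AGO3 (AT1G31290, chr1:11188120-11192585, plus strand), the closest paralog of AGO2, begins 2723 bases after it and went another way. It stood at 4.90 and 4.70 FPKM in wild type, against 0.916 and 0.943 FPKM in the trm4b-4-labelled pair. The libraries of each genotype nearly coincide, and the groups lie far apart. Its mean was 4.80 ± 0.142 against 0.929 ± 0.0194 FPKM (SD, n = 2 each), 5.17-fold lower, with a log2 change of -1.59 on the FPKM + 1 scale (SE 0.103, 95% interval -1.83 to -1.35, limma adjusted p = 1.3e-05). In fragments this was 464 and 401 against 72 and 78, a rate ratio of 0.193 (exact 95% interval 0.161 to 0.230). AGO3 passed the filter only through the wild-type libraries, so that its direction in the main fit follows from the filter. With no filter it fell as well (limma adjusted p = 0.000546).

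No 50-base window of AGO2 or AGO3 occurs unchanged in the transcript of another gene. Windows that differ by a few bases were not searched, so reads placed on the wrong gene of the pair were not tested. The next gene, AT1G31300, stood at 19.9 and 20.2 FPKM against 17.6 and 20.2 FPKM (-0.09, adjusted p = 0.352). The remaining loci of the Argonaute list, AGO5, AGO9 and AT5G21030, were at 0.129 FPKM or lower in every library and were not tested. In the same libraries all 12 rapid stress and touch genes fell, beside 15.1% of all tested genes. Their summed level went from 1092 and 1098 FPKM to 187 and 186 FPKM. All 3 tested seed markers rose, beside 19.2% of all tested genes. Of these, CRA1 and EM1 passed the filter only through the trm4b-4-labelled pair, so that their direction follows from the filter. The summed level of the 4 seed markers went from 2.79 and 2.35 FPKM to 9.78 and 9.26 FPKM. Both lists were chosen with earlier results of these libraries known, and the part of either in the difference between AGO2 and AGO3 was not tested.

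**Figure D2:**
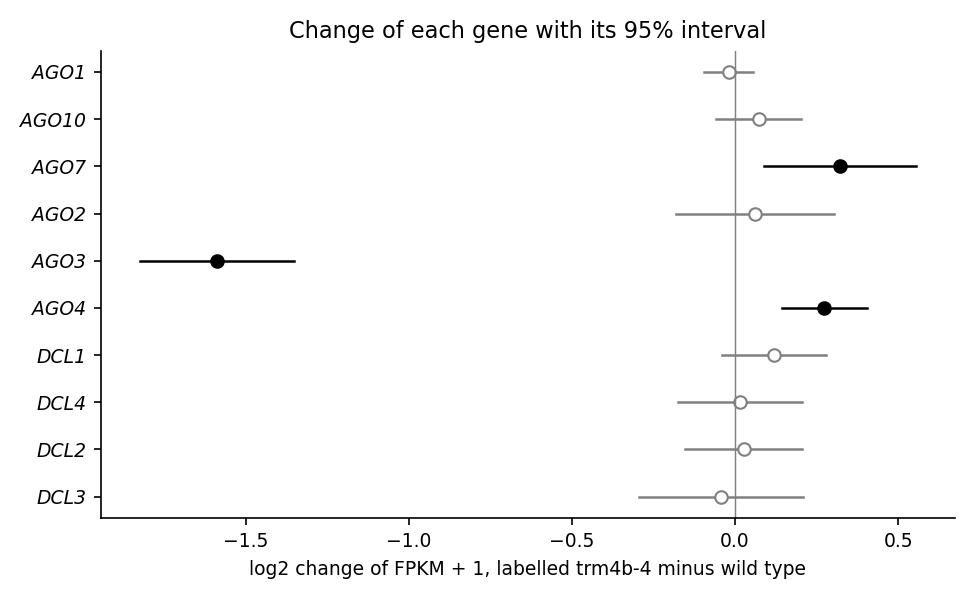
Log2 change of FPKM + 1 (horizontal axis, trm4b-4-labelled libraries minus wild type) with its 95% interval for the 9 tested members and AGO3, filled where the adjusted p was under 0.05. AGO7 and AGO4 lie to the right of 0 at 0.32 and 0.27, AGO3 far to the left at -1.59, and the intervals of the other 7 members include 0. AGO3 passed the filter only through the wild-type libraries.

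AGO4 (AT2G27040, chr2:11536502-11542391, minus strand), the main Argonaute of RNA-directed DNA methylation, rose. It stood at 15.5 and 16.9 FPKM in wild type, against 19.8 FPKM in both trm4b-4-labelled libraries. The wild-type libraries differ more from each other than the trm4b-4-labelled ones do, and both lie below them. The mean went from 16.2 ± 0.996 to 19.8 ± 0.0354 FPKM (SD, n = 2 each), a ratio of 1.22 and a log2 change of 0.27 (SE 0.057, 95% interval 0.14 to 0.41, limma adjusted p = 0.00706). In fragments this was 1301 and 1279 against 1382 and 1450, a rate ratio of 1.22 (exact 95% interval 1.16 to 1.29, counting error only).

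AGO4 passed under each of the 13 alternatives run, with an adjusted p of at most 0.0471, without wild type replicate 1. The change is modest among genes that passed, 57.3% of which changed more. Of its neighbours, both on the opposite strand, ENODL20 lies 16 bases away and did not pass (-0.21, limma adjusted p = 0.511). EIL1, 3264 bases away, fell from 39.7 and 41.7 FPKM to 35.1 and 37.2 FPKM (-0.17, limma adjusted p = 0.0217).

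AGO6 (AT2G32940, chr2:13971916-13977521, minus strand), which shares the role of AGO4 in meristems, was the least abundant member. It stood at 0.620 and 0.519 FPKM in wild type, against 0.517 and 0.405 FPKM in the trm4b-4-labelled pair, or 49 and 37 against 34 and 28 fragments. The groups barely separate, the lower wild-type library and the higher trm4b-4-labelled library being almost equal. The rate ratio was 0.804, and its exact 95% interval of 0.570 to 1.13 includes no change, so a difference was not detectable at this depth. Without the filter its log2 change was -0.10 (95% interval -0.30 to 0.09, limma adjusted p = 0.404). Whether AGO4 and AGO6 differ in their change was not tested.

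DCL3 (AT3G43920, chr3:15753387-15760859, plus strand), which makes the small RNAs loaded into AGO4, stood at 2.85 and 2.42 FPKM in wild type, against 2.45 and 2.59 FPKM in the trm4b-4-labelled pair. Both of the latter lie within the span of the wild-type libraries. The log2 change was -0.04 (SE 0.109, 95% interval -0.30 to 0.21, adjusted p = 0.792), and it was 0.04 without wild type replicate 1. DCL3 shares 43 exon bases with AT3G43930 on the opposite strand, which stayed at 0.320 FPKM or lower.

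Of 18 further genes of RNA-directed DNA methylation, 15 were tested, 1 rose and none fell, beside 19.2% and 15.1% of all tested genes, with a median log2 change of 0.07. SHH1, which recruits RNA polymerase IV to methylated chromatin, rose from 7.08 and 8.02 FPKM to 9.03 and 9.60 FPKM (log2 change 0.27, adjusted p = 0.0321). The call did not hold with trm4b-4 replicate 2 (adjusted p = 0.127) or wild type replicate 1 (0.167) left out, with no filter (0.078) or with no trend (0.0589). DMS3, of the complex that helps RNA polymerase V, had a change of the same size and did not pass (0.28, adjusted p = 0.0664). The largest subunit genes of polymerases IV and V, NRPD1 and NRPE1, stood at 0.07 (adjusted p = 0.655) and 0.12 (adjusted p = 0.356). The methyltransferase gene DRM2 stood at 0.11 (adjusted p = 0.396). With voom 5 of the 15 passed, near the 39.5% of all genes in that fit.

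Over all 9 lists of other small RNA genes, 66 of 81 members were tested, with a median log2 change of 0.05. The genes that fell include AGO3, whose direction follows from the filter. In all, 10 rose and 4 fell. That is 14 of 66, beside 34.3% of all tested genes. With voom 24 passed, beside 39.5% of all genes in that fit. Fewer passed with each library left out in turn, and fewer of all genes did. These lists were chosen with earlier results of these libraries known and describe the pathway only.

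**Figure D3:**
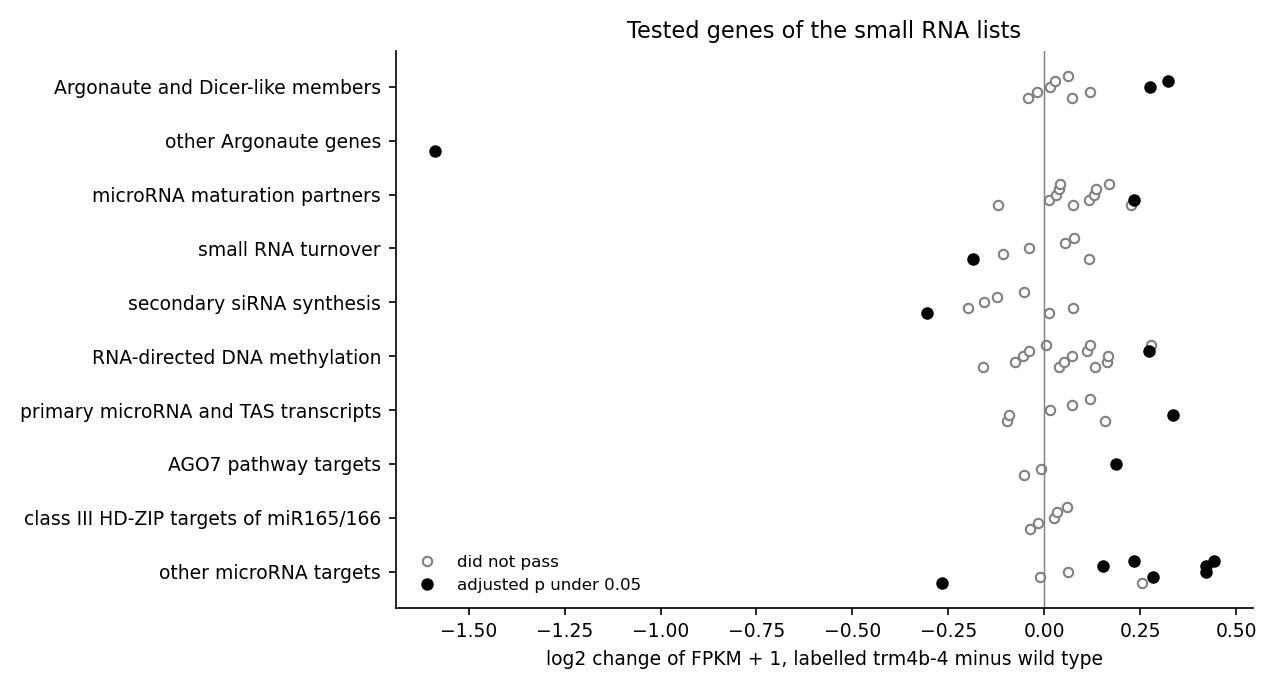
Log2 change of FPKM + 1 (horizontal axis, trm4b-4-labelled libraries minus wild type) of every tested gene in the small RNA lists, 1 list per row, filled where the adjusted p was under 0.05. AGO3, which passed the filter only through the wild-type libraries, stands apart at -1.59, and the rises among other microRNA targets reach 0.44.

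Because FPKM is per length, levels can be ordered between genes. In wild type the order was AGO1, AGO10, AGO4, DCL1, DCL2, DCL4, AGO2, DCL3, AGO7 and AGO6. The ranges of AGO10 and AGO4 overlapped, as did those of DCL2, DCL4 and AGO2 and those of DCL3 and AGO7. Ranges over libraries thus do not order these neighbours. Within each wild-type library AGO10 lay above AGO4 and DCL3 above AGO7. In the trm4b-4-labelled libraries the order was AGO1, AGO4, AGO10, DCL1, DCL2, DCL4, AGO2, AGO7, DCL3 and AGO6. There AGO4 lay above AGO10 and AGO7 above DCL3 with no overlap, and DCL2, DCL4 and AGO2 still overlapped.

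These 2 exchanges of rank can be read within each library. The ratio of AGO4 to AGO10 in FPKM was 0.918 and 0.944 in wild type and 1.11 and 1.05 in the trm4b-4-labelled libraries. The ratio of AGO7 to DCL3 was 0.917 and 0.962 against 1.37 and 1.27, and that of AGO2 to AGO3 was 1.07 and 1.38 against 7.02 and 6.21. For each of the 3 ratios both libraries of 1 genotype lie above both of the other. These 3 pairs were picked from levels seen in the same libraries, so their separation is no support for a change. Separation was also seen in other ratios. It held for AGO4 to AGO1 (0.245 and 0.259 against 0.310 and 0.313). It also held for AGO1 to AGO10 (3.75 and 3.65 against 3.58 and 3.34), neither of which passed, so separation alone does not mark a change. The share of all gene pairs that separate was not computed. An exact two-sided permutation test of log2 ratios gave p = 0.333 in each case, the smallest that 2 against 2 libraries allow, so none can pass on its own.

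The summed level of all 10 Argonaute genes of the genome, AGO3 and the 3 near-silent ones included, was 111.9 ± 3.62 FPKM in wild type, against 112.7 ± 0.354 FPKM under the mutant label (SD, n = 2 each). AGO1 made up 57.5 ± 0.614% of it in wild type and 56.3 ± 0.302% in the trm4b-4-labelled libraries. AGO10 held 15.5 ± 0.150% and 16.3 ± 0.719%. AGO4 went from 14.5 ± 0.422% to 17.6 ± 0.0238% and AGO7 from 2.21 ± 0.252% to 2.96 ± 0.0258%, while AGO3 went from 4.30 ± 0.266% to 0.825 ± 0.0198%. The total thus differed by less than the spread between the wild-type libraries.

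The 4 Dicer-like genes summed to 23.4 ± 0.729 FPKM in wild type, against 24.3 ± 0.964 FPKM under the mutant label. DCL1 held 34.4 ± 1.61% and 36.3 ± 0.222% of this sum, DCL2 27.4 ± 0.333% and 27.0 ± 0.372%, DCL4 27.0 ± 0.327% and 26.3 ± 0.577%, and DCL3 11.2 ± 0.952% and 10.4 ± 0.0168%. The means of all 4 shares differ by less than 2 percentage points between the genotypes.

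**Figure D4:**
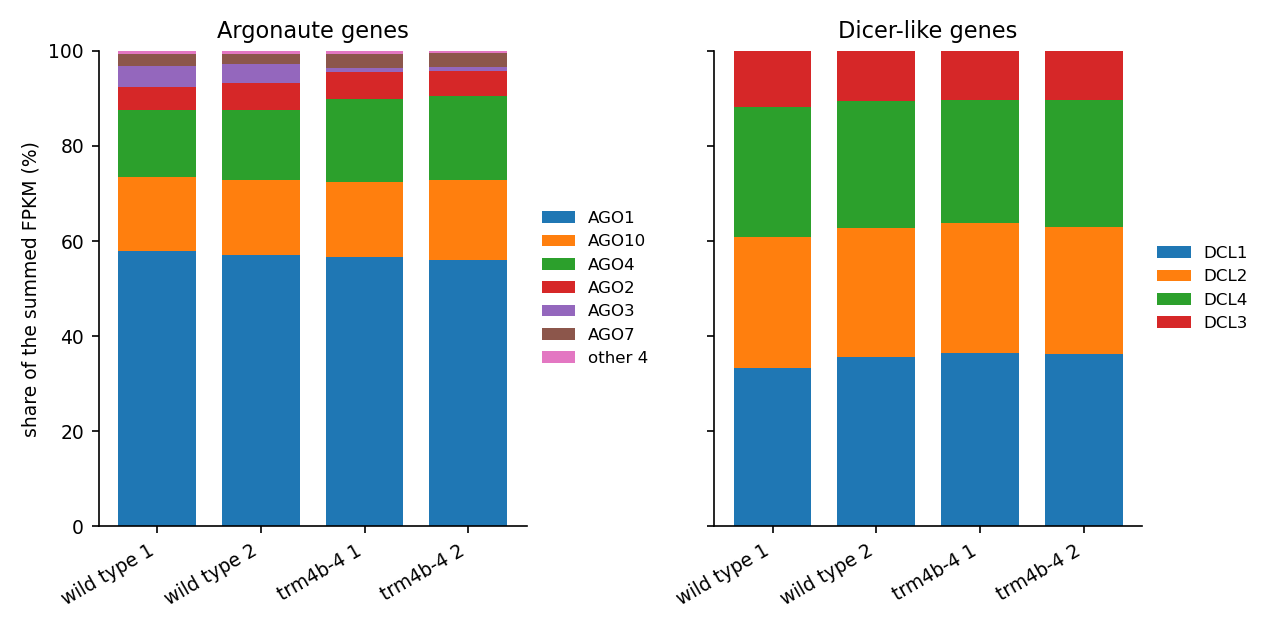
Share in percent of the summed FPKM of the 10 Argonaute genes (left) and the 4 Dicer-like genes (right) in each library, stacked by gene. AGO1 fills the largest part of each Argonaute bar (57.5% and 56.3% on average), the AGO3 segment shrinks from 4.30% to 0.825% on average, and the Dicer-like bars look alike in all libraries.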

How the data were processed

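The deposited values were FPKM, 1 table per library. The file headers do not name this unit, and it was inferred because each value is a whole fragment number over a gene length and a library total. The submitters' processing notes list the TAIR10 build, HTSeq 0.6.1, TopHat2 2.0.12, Cuffdiff and Cufflinks 2.1.1. What each tool did, whether counting used strand and how multiply matching reads were treated is not given in the sources used here. All 24892 features above 0 gave whole fragments within 2e-06 fragments plus a relative 3e-09. Lengths were annotated for 3787 features. For the others a length was estimated, so fragment numbers can be off by a whole factor, as for DCL1, whose length of 6064 could also be 3032. The recovered fragments summed to 102.16% to 102.36% of the inferred library totals, and the reason was not tested.

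Tests used limma 3.58.1 in R 4.3.3 on log2(FPKM + 1), which understates changes of low genes, with a mean-variance trend, no covariate, a filter of 1 FPKM in 2 of 4 libraries and two-sided p-values adjusted by Benjamini-Hochberg over 19027 genes. Alternatives were pseudocounts of 0.1 and 0.5, no filter, a filter at 5 FPKM, no trend, median-of-ratios and quantile scaling, each library left out, a replicate block, and voom on recovered fragments. Exact 95% intervals of fragment ratios and all fragment numbers cover counting error only. The members and lists were chosen with earlier results of these data known. Named were all members, TRM4B, the microRNA precursors of members and, per list, up to 4 called genes per direction by smallest adjusted p. Other genes are given as values only. Neighbouring genes and AGO3 in detail were chosen after their values were seen. Positions and sequences are those of RefSeq's TAIR10.1, in which each locus named here was matched by its identifier. Symbols are those in use for the locus, and for TRM4B the symbol follows the labels. Replicate numbers did not pair the libraries (correlation of deviations -0.0434 over 19027 genes).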

Additional observations from a re-analysis of the deposited data

How the results depend on the processing

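AGO4 kept its call under all 13 alternatives and AGO7 under 5 (both other pseudocounts, no mean-variance trend, the replicate block and voom). AGO7 was not tested at 5 FPKM. The number of members that rose, 2, was therefore 1 without a filter, with the filter at 5 FPKM, after median-of-ratios rescaling and with quantile normalization. Over all genes, 2958 of 24892, 3320 of 14352, 2967 of 19027 and 3598 of 19027 rose in these fits. The call of AGO7 was also lost with each library left out in turn. Of the pathway lists, 14 genes passed in the main fit, 9 without a filter, 24 with voom and 6 to 12 without a library. Those higher numbered 10, 19 with voom and 4 to 9 without a library. Those lower numbered 4, 2 without a filter, 2 at 5 FPKM and 2 to 3 without a library. The replicate block, whose numbers did not pair the libraries, left 2 members called and gave 3768 higher and 3001 lower genes against 3648 and 2882, and AGO7 had an adjusted p of 0.049. Changes near 0 turned sign for 5 members and 2 precursors. With quantile normalization AGO1 was at 0.027, DCL2 at -0.0063 and DCL4 at -0.017, and after median-of-ratios rescaling DCL2 was at -0.0013, DCL4 at -0.013 and MIR162A at -0.015. Without a library in turn, AGO1 ranged from -0.041 to 0.0023, AGO2 from -0.070 to 0.19, DCL2 from -0.012 to 0.065, DCL3 from -0.13 to 0.042, DCL4 from -0.040 to 0.069, MIR162A from -0.037 to 0.067 and MIR168A from -0.026 to 0.34. No reversed value passed the test, and the cause was not tested. Of 334 gene values under alternatives, 267 kept direction and side of the threshold. With a library left out, a genotype has 1 library, which is assumed to vary like the pair of the other. With 2 libraries per genotype and 28 to 49 fragments of AGO6, small changes of the rarer members were not detectable.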
